A study of Mus musculus with 15 samples.

Results

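The genes described here encode the chemokines that draw neutrophils into tissue, the receptor for those chemokines, and cytokines and a granule protein tied to the same cells. They are the ligand genes Cxcl1, Cxcl2, Cxcl3 and Cxcl5, the receptor gene Cxcr2, the cytokine genes Csf3 and Il6, the receptor gene Csf3r, and Ngp. These 9 genes were picked by name for their known roles, with earlier results of these data known. They were matched by Ensembl identifier in a table of 56059 genes. All 9 were in the table, and 8 of them passed the filter on low counts. Csf3 did not pass and is given as counts.

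Neutrophils leave the blood along gradients of chemokines that bind the receptor CXCR2. Inflamed keratinocytes, fibroblasts, macrophages and neutrophils themselves release these chemokines, and the transcription factor NF-kappaB drives their genes. Csf3 encodes granulocyte colony-stimulating factor, which acts through the receptor encoded by Csf3r to raise neutrophil output from the marrow. Il6 encodes interleukin-6, a cytokine of acute inflammation, and Ngp encodes a protein of the specific granules that is transcribed mainly while neutrophils mature in the marrow.

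RNA of mouse skin was sequenced after bone marrow transplantation, in a model of the skin-hardening form of chronic graft-versus-host disease, where immune cells of a foreign donor attack the recipient. The combination group were allogeneic recipients given Wnt-C59 at 5 mg/kg plus belumosudil at 150 mg/kg (n = 4), and the Wnt-C59 group were allogeneic recipients given Wnt-C59 alone at 5 mg/kg (n = 4). The allogeneic group (n = 3) and the syngeneic group (n = 4) were given the vehicle, 0.4% methylcellulose, so syngeneic skin also came from transplanted, gavaged mice. Dosing was oral and daily between day 21 and day 49, Wnt-C59 blocks porcupine, which makes Wnt ligands fit to be secreted, and belumosudil blocks the kinase ROCK2. The vehicle of the treated groups and the strains, sexes and ages of donors and recipients are not given in the sources used here, and no label says that each library came from its own animal, so the tests measure the spread between libraries.

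The 15 libraries held 16.26 to 28.78 M estimated counts, and levels are given as CPM, that is counts per M (mega) of TMM-scaled library size. Estimated counts with a fractional part made up 44.76% to 60.62% of the non-zero values in the 8 treated libraries, against 31.07% to 34.39% in the 7 vehicle libraries. No label names a batch, so whatever lies behind that gap cannot be told apart from treatment. The libraries also differed in tissue make-up. Skeletal muscle markers (5 genes) summed to 15.4 CPM in combination library 5 and to 39040 CPM in Wnt-C59 library 4. Adipocyte markers (6 genes) summed to 951 to 2181 CPM in treated libraries, 339.8 to 581.8 CPM in allogeneic libraries and 577 to 1229 CPM in syngeneic libraries. The keratinocyte markers Krt5 and Krt14 and the other genes of the basal keratinocyte list were detected throughout, with a lowest sum of 4766 CPM. Library numbers of treated skin are those in the table's header and need not match the replicate numbers of the titles, and the combination columns were matched to their group by elimination.

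The promoters are shown because 3 of the ligand genes share a run of letters that holds an NF-kappaB motif. RefSeq promoter windows (build GRCm38.p6, 250 bases before to 50 bases after each gene's start) were at hand for 7 of the 9 genes, not including Cxcl5 and Csf3. The NF-kappaB core GGNNTTTCC, searched on both strands, was in the windows of 4 genes (Cxcl1, Cxcl2, Cxcl3 and Il6) and in 5.82% of all 32851 windows. The longest run around it that Cxcl1, Cxcl2 and Cxcl3 share is the 11 letters GGGAATTTCCC, beginning 71, 97 and 73 bases before the start of each, and 0.0426% of all windows hold it. Il6 held GGATTTTCC in its place, beginning 43 bases before the start. The last 150 bases before the start of each of the 4 genes are given here on the + strand, 5′ to 3′, with the matches to GGNNTTTCC in capitals, the leftmost in Cxcl1 being a match on the other strand:
Cxcl1 (chr5:90891095-90891244): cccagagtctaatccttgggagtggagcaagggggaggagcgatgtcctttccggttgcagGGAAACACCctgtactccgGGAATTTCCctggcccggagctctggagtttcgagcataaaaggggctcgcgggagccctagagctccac
Cxcl2 (chr5:90903749-90903898): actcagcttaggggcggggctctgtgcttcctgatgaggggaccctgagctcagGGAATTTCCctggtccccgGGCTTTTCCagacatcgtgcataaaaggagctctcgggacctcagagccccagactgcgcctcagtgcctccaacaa
Cxcl3 (chr5:90785951-90786100): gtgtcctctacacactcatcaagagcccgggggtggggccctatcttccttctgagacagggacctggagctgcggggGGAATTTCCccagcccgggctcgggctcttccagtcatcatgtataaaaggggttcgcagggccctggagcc
Il6 (chr5:30012964-30013113): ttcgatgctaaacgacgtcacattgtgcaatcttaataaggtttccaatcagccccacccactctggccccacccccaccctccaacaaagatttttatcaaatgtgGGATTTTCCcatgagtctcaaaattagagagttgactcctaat

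A C/EBP motif, TTGCNNAA, was in the windows of Il6 and Ngp and in 10.8% of all windows, and no match to it overlapped one to the NF-kappaB motif. These matches describe letters, and binding was not measured. The shared run was picked from the windows of Cxcl1, Cxcl2 and Cxcl3 themselves, so its low share over all windows is no test of it. The ligand genes are close relatives, and how reads that fit several of them were shared out is not given in the sources used here, so the split of counts between Cxcl1, Cxcl2 and Cxcl3 is uncertain.

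Allogeneic skin was first compared with syngeneic skin, which asks what the foreign graft added. Of the 8 tested genes, 7 were called higher in allogeneic skin at a Benjamini-Hochberg adjusted p under 0.05 in edgeR's quasi-likelihood test, where 14.6% of the 18651 genes tested were called higher and 15.1% lower. The median log2 fold change of the 8 genes was 6.31, against -0.07 over all genes tested. The genes were chosen with earlier results of these data known, so the contrasts with all genes describe them and test nothing. The receptor genes Cxcr2 and Csf3r were high in all 3 allogeneic libraries. The ligand genes, Csf3 and Ngp were high mainly in allogeneic library 1, and at or near the syngeneic level in library 2. In library 3 they were at an intermediate level, except for Cxcl1, just above the syngeneic range, and Csf3, with 6 counts.

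Cxcl2, which encodes a ligand made largely by macrophages and neutrophils, had 630.2, 0.299 and 14.2 CPM in allogeneic libraries 1, 2 and 3, against 0, 0.186, 0.183 and 0 CPM in syngeneic libraries 1 to 4. The lowest allogeneic value lay above the highest syngeneic value, although library 2 passed it by little. The log2 fold change was 11.11 ± 2.39 (SE) with an adjusted p of 0.0048 in edgeR's test, and 6.22 ± 1.67 (adjusted p = 0.019) without allogeneic library 1. Cxcl3, of the same gene cluster on chromosome 5, had 164, 0.539 and 5.58 CPM in allogeneic libraries, against 0, 0, 0 and 0.265 CPM in syngeneic libraries. It followed the order of Cxcl2 over the allogeneic libraries, and its groups did not overlap either. The fit gave a log2 fold change of 9.58 ± 2.05 (edgeR adjusted p = 0.0044), and 5.38 ± 1.57 without library 1 (adjusted p = 0.026).

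Cxcl1, a ligand released by keratinocytes and stromal cells among others, had 29.9, 0.539 and 0.846 CPM in allogeneic libraries, against 0.688, 0.417, 0.229 and 0.529 CPM in syngeneic libraries. Library 1 stood far above the rest, and the other two allogeneic libraries lay in or just above the syngeneic range. The log2 fold change of 4.46 ± 1.51 (edgeR adjusted p = 0.042) became 0.57 ± 1.29 (adjusted p = 0.79) without allogeneic library 1. Cxcl5, another CXCR2 ligand of epithelial cells, had 31.2, 0 and 2.82 CPM in allogeneic libraries, against 0, 0.232, 0 and 0.132 CPM in syngeneic libraries. Its groups overlapped through library 2, where no count was recorded. The log2 fold change was 6.87 ± 2.21 (edgeR adjusted p = 0.035) and 3.87 ± 2.13 (adjusted p = 0.21) without library 1. Both calls were also lost when any 1 of the 4 syngeneic libraries was left out.

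Cxcr2 gave the most even picture of the 9 genes. It had 30.7, 34.3 and 38.6 CPM in allogeneic libraries, against 0.596, 0.649, 0.275 and 1.01 CPM in syngeneic libraries. The means were 34.5 ± 3.95 CPM in allogeneic skin (SD, n = 3) and 0.634 ± 0.303 CPM in syngeneic skin (SD, n = 4). Its log2 fold change was 5.75 ± 0.82 (edgeR adjusted p = 0.00024) and lay between 5.50 and 6.11 with any 1 library left out. Csf3r had 55.5, 13.4 and 39.8 CPM in allogeneic libraries, against 2.94, 1.44, 3.62 and 1.46 CPM in syngeneic libraries. The groups did not overlap, library 2 was the lowest of the allogeneic libraries, and the log2 fold change was 3.94 ± 0.68 (adjusted p = 0.00085).

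Csf3 had 22.8, 0.120 and 0.338 CPM in allogeneic libraries, which came from 384 counts in all, and no count in any of the 4 syngeneic libraries. Library 1 held 376 of these counts. Set against a floor of 3 counts in each syngeneic library, the allogeneic mean was at least 56.9-fold higher, and at least 1.68-fold higher without allogeneic library 1, bounds that cover counting error only. Il6 had 6.20, 0.359 and 1.80 CPM in allogeneic libraries, against 0.0917, 0.0464, 0.183 and 0.838 CPM in syngeneic libraries. The groups overlapped, and its log2 fold change of 3.23 ± 1.39 did not pass (edgeR adjusted p = 0.098). Ngp had 49.9, 0 and 6.37 CPM in allogeneic libraries, against a single count (0.0464 CPM) in syngeneic library 2 and none in the other syngeneic libraries. The ratio of its level was 1613, with a 95% counting interval of 289 to 63770, on 934 allogeneic counts and 1 syngeneic count. Allogeneic library 1 held 821 of these counts, and the interval covers counting error only, not the spread between libraries. The edgeR log2 fold change was 10.06 ± 2.31 (adjusted p = 0.01), and the call was lost without syngeneic library 2, the only syngeneic library with a count.

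**Figure D1:**
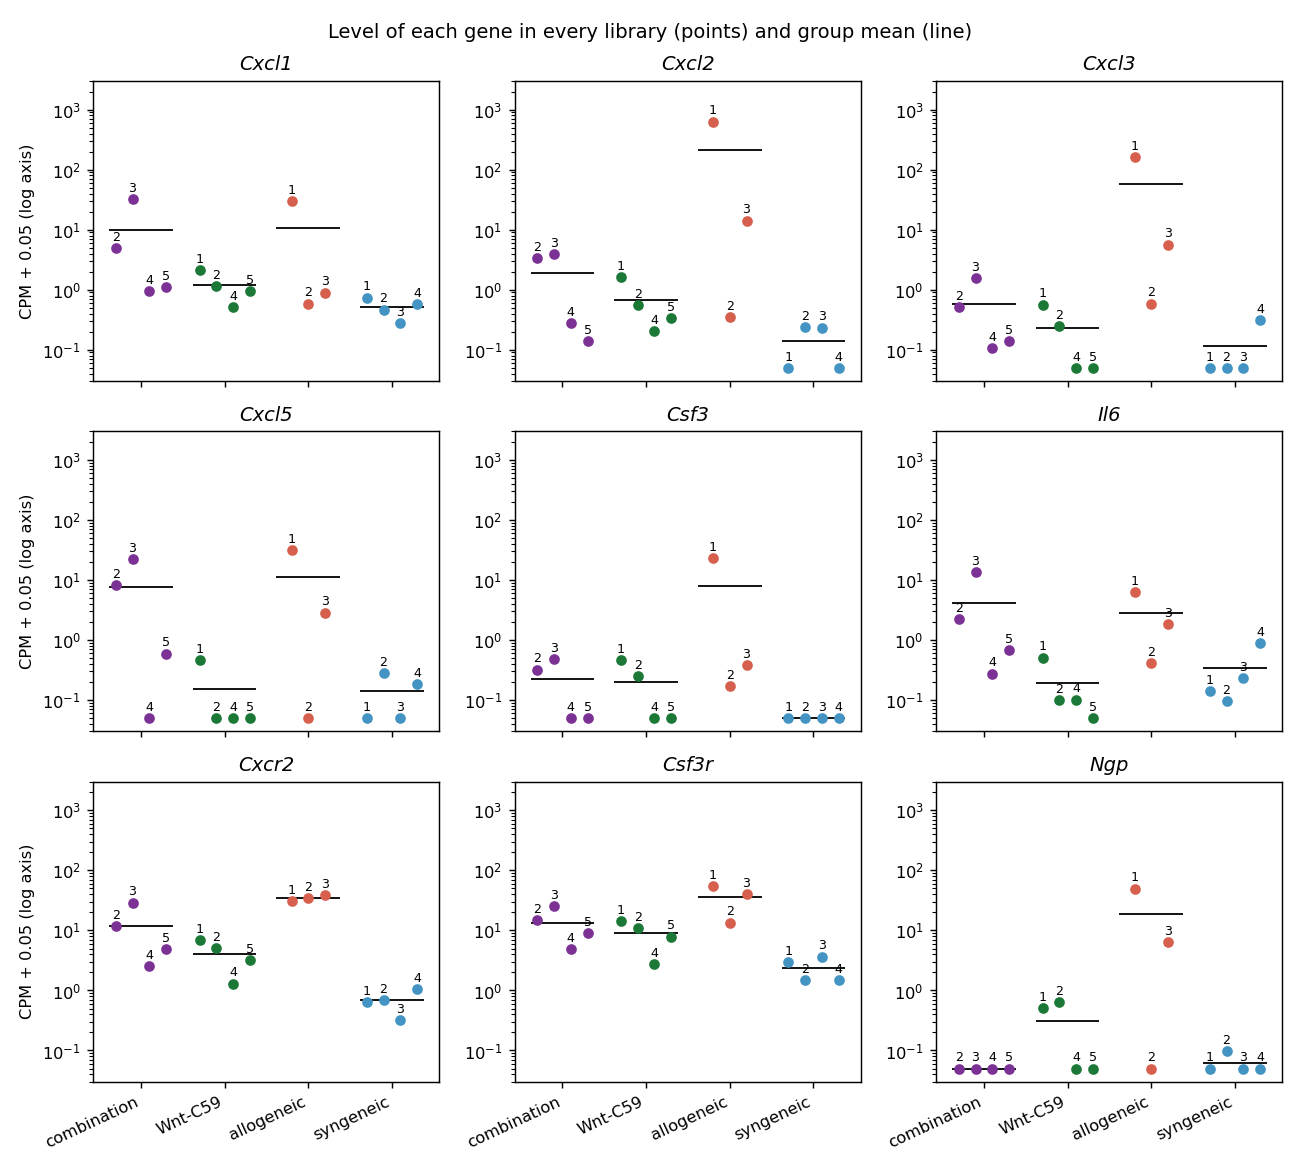
Level of each of the 9 genes in every library, as CPM plus 0.05 on a log axis, with 1 panel per gene and the groups in the order combination, Wnt-C59, allogeneic and syngeneic. Points are libraries, marked with their number, and black lines are group means; points at the bottom are libraries with no count, and Cxcr2 is the gene with the tightest allogeneic points, at 30.7 to 38.6 CPM.

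CPM ranges of allogeneic and syngeneic libraries did not overlap for 5 of the 9 genes (Cxcl2, Cxcl3, Cxcr2, Csf3 and Csf3r), all higher in allogeneic skin. Over all genes tested, 16.7% were higher with no overlap. The 7 calls fell to 2 (Cxcr2 and Csf3r) with limma-voom or with the fit of these 2 groups alone, and to 1 (Cxcr2) with an adipocyte score as covariate.

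The wider neutrophil pathway is given by 10 lists of genes, which were written with earlier results of these data known. Among attractants and receptors other than chemokines, 7 of 9 genes rose in allogeneic skin and none fell. They included the complement receptor genes C3ar1 (log2 fold change 3.57 ± 0.36, edgeR adjusted p = 1.3e-05) and C5ar1 (3.77 ± 0.42, adjusted p = 3.1e-05), and Ptafr, the receptor for platelet-activating factor (2.68 ± 0.29, adjusted p = 2.4e-05). All 10 leukocyte adhesion genes rose, among them Vcam1, which endothelium uses to hold leukocytes (4.81 ± 0.46, adjusted p = 1.3e-05), and Itgb2, the beta chain of leukocyte integrins (3.26 ± 0.33, adjusted p = 1.5e-05). Of 8 tested genes of the colony-stimulating factor list, 5 rose and none fell, and the smallest adjusted p was that of Csf1r, the receptor of the macrophage growth factor (2.18 ± 0.25, adjusted p = 3.3e-05).

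Of the 12 genes of the IL-6 family list, 9 rose and 1 fell. Osm, the gene of oncostatin M, had 35.0, 0.958 and 5.13 CPM in allogeneic libraries, against 0.138, 0.232, 0.275 and 0.132 CPM in syngeneic libraries. Osm had a log2 fold change of 6.10 ± 1.00 (edgeR adjusted p = 0.00056). Jak2, a kinase that carries cytokine signals, rose (log2 fold change 1.25 ± 0.21, adjusted p = 0.00053), and Il11ra1, the interleukin-11 receptor gene, fell (-1.87 ± 0.26, adjusted p = 0.00016). Of 12 tested genes that encode or relay inducers of neutrophil chemokines, 8 rose and none fell, and 5 rose without allogeneic library 1. Il36g and Il36a, epidermal cytokines of the interleukin-1 family, had log2 fold changes of 2.99 ± 0.40 (adjusted p = 0.00013) and 4.56 ± 0.65 (adjusted p = 0.00019). Tnf had one of 4.25 ± 0.92 (adjusted p = 0.004), at 103.9, 3.35 and 5.81 CPM in allogeneic libraries, against 2.94, 2.23, 1.78 and 0.970 CPM in syngeneic libraries. Il17a, the textbook inducer from T cells, also named after its values were seen, had no count in any of the 15 libraries. Of the 8 NF-kappaB feedback genes, which NF-kappaB itself switches on, 7 rose and none fell, with Tnfaip3 at 1.88 ± 0.24 (adjusted p = 7.4e-05).

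Genes that mark neutrophils themselves rose in part. Of 10 tested granule genes 5 rose and none fell, and of 10 tested genes of mature neutrophils 7 rose and 1 fell. Chil3, a chitinase-like gene that macrophages also express, had 1362, 97.7 and 1434 CPM in allogeneic libraries, against 0.0917, 0.139, 0 and 0.221 CPM in syngeneic libraries. The log2 fold change was 12.98 ± 1.88 (edgeR adjusted p = 0.00041), and it was as high in library 3 as in library 1. Mmp8, the neutrophil collagenase, had 38.3, 0.359 and 7.89 CPM in allogeneic libraries, against 0, 0, 0.0458 and 0 CPM in syngeneic libraries (adjusted p = 0.0011). Its allogeneic libraries had the order seen for Ngp. The calprotectin genes S100a8 and S100a9, which neutrophils and inflamed keratinocytes both make, had log2 fold changes of 7.78 ± 1.36 (adjusted p = 0.0013) and 9.13 ± 1.71 (adjusted p = 0.002).

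Allogeneic library 1 stood above library 3 in the calprotectin and mature neutrophil sums, but not by much in the granule sum. Most of the granule sum was Chil3 in each allogeneic library, so it says little about the other granule genes. The 2 calprotectin genes summed to 3186, 48.1 and 328.5 CPM in allogeneic libraries 1, 2 and 3, against 2.02 to 4.94 CPM in syngeneic libraries. The 13 mature neutrophil genes summed to 1265, 108 and 191 CPM in allogeneic libraries, against 99.7 to 157 CPM in syngeneic libraries. The granule genes summed to 1900, 142 and 1694 CPM in allogeneic libraries, against 8.26 to 18.4 CPM in syngeneic libraries. Retnlg and Ly6g, defining genes of mature neutrophils (Ly6g was named after its values were seen), had 269.9 and 6.80 CPM in library 1, 0.958 and 0.0599 CPM in library 2, and 5.81 and 0.113 CPM in library 3. In syngeneic skin Retnlg had 0.0459 to 0.458 CPM and Ly6g 0 to 0.0917 CPM. In library 2, Cxcr2 was therefore at 34.3 CPM beside Retnlg under 1 CPM. Macrophage markers (8 genes) summed to 1526 to 2361 CPM in the 3 allogeneic libraries, against 249 to 462 CPM in syngeneic libraries, and activated keratinocyte markers (5 genes) to 10340 to 19520 CPM, against 1315 to 3115 CPM. The part of any of these cells in the results was not tested, and in whole skin more cells of a type and more RNA per cell cannot be told apart.

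Wnt-C59 skin was next compared with allogeneic skin given vehicle, which asks how porcupine inhibition changed these genes. Of the 8 tested genes 7 were called lower with Wnt-C59 (edgeR adjusted p under 0.05), where 26.2% of all genes tested were called lower and 24.6% higher, and the eighth, Cxcl1, did not pass. Their median log2 fold change was -5.20, against 0 over all genes tested. Without allogeneic library 1, Cxcl3 and Cxcr2 alone were still called lower.

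The ligand genes were low in every Wnt-C59 library. Cxcl2 had 1.59, 0.496, 0.156 and 0.285 CPM in Wnt-C59 libraries 1, 2, 4 and 5, against the 0.299 to 630.2 CPM of allogeneic libraries given above. The log2 fold change was -8.40 ± 2.03 (edgeR adjusted p = 0.0049), and -3.51 ± 1.43 (adjusted p = 0.068) without allogeneic library 1. Cxcl3 had 0.513, 0.198, 0 and 0 CPM in Wnt-C59 libraries, all below the lowest allogeneic value of 0.539 CPM, with a log2 fold change of -8.28 ± 1.88 (adjusted p = 0.0032). Cxcl5 had 0.410 CPM in Wnt-C59 library 1 and no count in the other 3 Wnt-C59 libraries (-6.73 ± 2.21, adjusted p = 0.023). Cxcl1 had 2.05, 1.09, 0.469 and 0.903 CPM in Wnt-C59 libraries, and its log2 fold change of -3.20 ± 1.41 did not pass (adjusted p = 0.077), though it did without allogeneic library 2 (adjusted p = 0.043). Without allogeneic library 1 the value for Cxcl1 was 0.70 (adjusted p = 0.7), and the Cxcl5 call was lost (-3.73, adjusted p = 0.19).

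Both receptor genes were lower with Wnt-C59. Cxcr2 had 6.87, 5.01, 1.25 and 3.18 CPM in Wnt-C59 libraries, against 30.7 to 38.6 CPM in allogeneic libraries, so the groups stood well apart. Its log2 fold change was -3.08 ± 0.71 (edgeR adjusted p = 0.0029) and lay between -3.45 and -2.78 with any 1 library left out. Csf3r had 14.3, 10.8, 2.71 and 7.84 CPM in Wnt-C59 libraries, and the highest of these lay just above allogeneic library 2 at 13.4 CPM. Its log2 fold change was -2.02 ± 0.63 (adjusted p = 0.016), and -1.58 (adjusted p = 0.08) without allogeneic library 1.

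Csf3 had 0.410 and 0.198 CPM in Wnt-C59 libraries 1 and 2 and no count in libraries 4 and 5, 12 counts in all against 384 in allogeneic libraries, of which 8 lay outside allogeneic library 1. The mean level was 0.152 CPM in Wnt-C59 skin, against 0.229 CPM in allogeneic libraries 2 and 3. Il6 had 0.461, 0.0496, 0.0521 and 0 CPM in Wnt-C59 libraries, with a log2 fold change of -4.27 ± 1.51 (edgeR adjusted p = 0.031). Ngp had 0.461, 0.595, 0 and 0 CPM in Wnt-C59 libraries with a log2 fold change of -6.12 ± 1.73 (adjusted p = 0.015). Neither call stood without allogeneic library 1 (adjusted p = 0.16 for Il6 and 0.087 for Ngp). Il6 and Cxcl5 were likewise not called without Wnt-C59 library 2, 4 or 5.

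CPM ranges lay apart for 2 of the 9 genes, Cxcl3 and Cxcr2, where 27.1% of all genes tested were lower with no overlap. With an adipocyte score as covariate no gene was called and the log2 fold changes of 6 genes were above 0. Adipocyte sums of Wnt-C59 and allogeneic libraries did not overlap, so that fit can hardly part the score from treatment. With limma-voom Cxcr2 and Csf3r were called lower, and with these 2 groups alone Cxcl2, Cxcr2, Csf3r and Ngp.

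**Figure D2:**
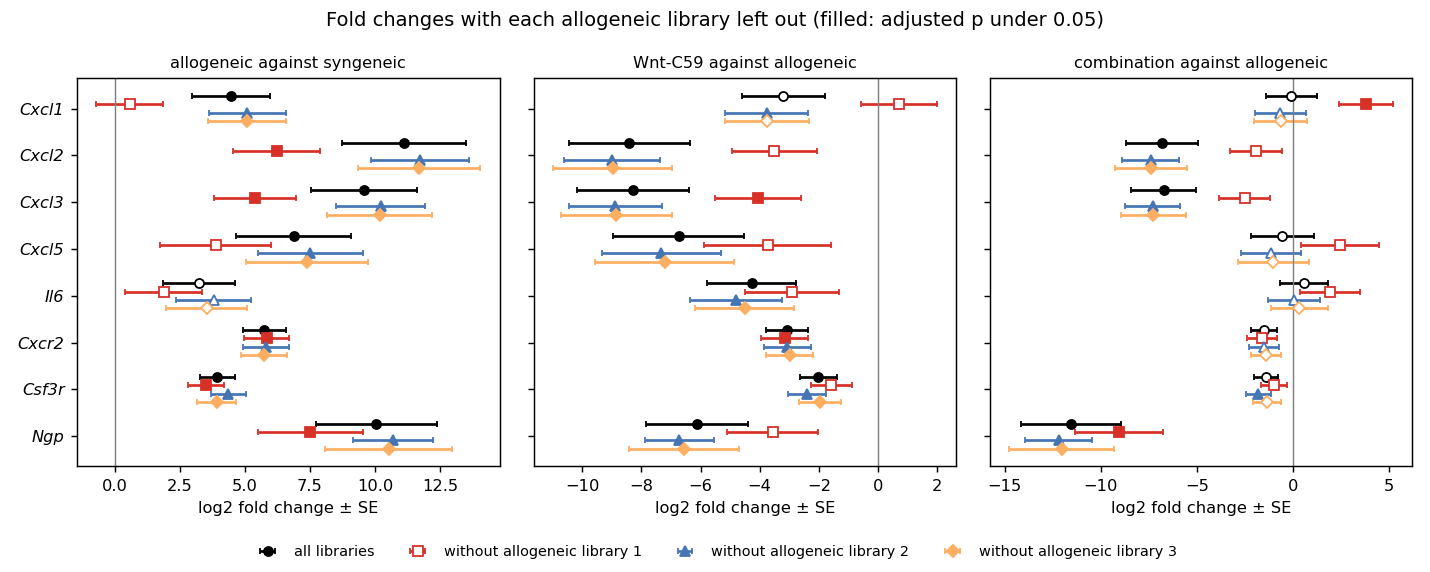
Fitted log2 fold changes with SE of the 8 tested genes for allogeneic against syngeneic, Wnt-C59 against allogeneic and combination against allogeneic skin, with all libraries and with each allogeneic library left out in turn; filled symbols passed an adjusted p of 0.05. Leaving out allogeneic library 1 moved the ligand genes most, with Cxcl1 at 0.57, 0.70 and 3.81 in the 3 comparisons, and moved Cxcr2 least, with 5.83, -3.16 and -1.60.

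In the pathway lists, 5 of 9 attractants and receptors fell with Wnt-C59 and none rose, with Ptafr at -1.89 ± 0.28 (edgeR adjusted p = 0.0001) and C3ar1 at -2.03 ± 0.34 (adjusted p = 0.00024). Of the 10 adhesion genes 6 fell and none rose, with Vcam1 at -2.55 ± 0.42 (adjusted p = 0.00025). Of 12 tested inducers 7 fell and 2 rose, and 3 fell without allogeneic library 1. Il1a fell (-2.69 ± 0.52, adjusted p = 0.00085), while Traf3ip2, the adaptor of the interleukin-17 receptor, rose (1.04 ± 0.16, adjusted p = 0.00014). Of the 12 IL-6 family genes 6 fell and 1 rose, with Jak2 at -1.72 ± 0.21 (adjusted p = 2.6e-05). Both calprotectin genes fell, S100a9 not so without allogeneic library 1 (adjusted p = 0.073), and 3 of 8 tested genes of the colony-stimulating factor list fell with none rising, among them Csf1r (-0.98 ± 0.24, adjusted p = 0.0037). Granule genes fell in 5 of 10 cases and rose in none, and mature neutrophil genes fell in 6 of 10 and rose in 2. Without allogeneic library 1, 1 granule gene and 2 mature neutrophil genes were called lower. Of the NF-kappaB feedback genes 2 of 8 fell and 1 rose, a share near the 26.2% of all genes called lower, and without allogeneic library 1 they numbered 1 lower and 2 higher, with Tnfaip3 at -1.22 ± 0.24 (adjusted p = 0.0007).

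Ackr1, the endothelial decoy receptor that binds CXCR2 ligands without signalling, was the tested gene of its list, and it rose. It had 20.1, 52.5, 38.3 and 19.8 CPM in Wnt-C59 libraries, against 5.16, 6.11 and 7.84 CPM in allogeneic libraries. Its log2 fold change was 2.36 ± 0.51 (edgeR adjusted p = 0.0018) with Wnt-C59 and -0.08 ± 0.48 (adjusted p = 0.92) in allogeneic against syngeneic skin. The endothelial cell markers (4 genes) summed to 177 to 238 CPM in Wnt-C59 libraries and 161 to 248 CPM in allogeneic libraries. The red cell markers (3 genes) summed to 209 to 523 CPM in Wnt-C59 libraries and 35.2 to 195 CPM in allogeneic libraries. In combination libraries the red cell sums were 85.5 to 122 CPM. The part of either cell type in the Ackr1 values was not tested.

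The sums of the neutrophil lists differed from each other in the Wnt-C59 libraries. Calprotectin genes summed to 3.47 to 42.6 CPM with Wnt-C59, against 48.1 to 3186 CPM in allogeneic skin, and Retnlg had 0.104 to 4.76 CPM, against 0.958 to 269.9 CPM. The granule genes summed to 21.4 to 133 CPM with Wnt-C59, against 142 to 1900 CPM in allogeneic skin. The mature neutrophil genes summed to 170.5 to 221.6 CPM with Wnt-C59, against 1265, 108 and 191 CPM in allogeneic libraries, so all 4 sums lay above allogeneic library 2 and 3 of them above library 3. A sum follows its most abundant genes, and syngeneic libraries already had 99.7 to 157 CPM. Gene by gene this list had a median log2 fold change of -3.4, with 6 of 10 tested genes called lower and 2 higher. Without allogeneic library 1, 2 were called lower and 1 higher. Macrophage markers summed to 434 to 703 CPM with Wnt-C59, against 1526 to 2361 CPM, and activated keratinocyte markers to 2774 to 5737 CPM, against 10340 to 19520 CPM. Their part in the results was not tested.

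Combination skin was compared with the same 3 allogeneic libraries, so both treated comparisons share their controls. Of the 8 tested genes 3 were called lower and none higher (edgeR adjusted p under 0.05), where 27.4% of all genes tested were called lower and 27.1% higher, so the count as such was no result about these genes. Cxcl2, Cxcl3 and Ngp fell, while Cxcl1, Cxcl5 and Il6 did not pass and lay within or above the allogeneic range in combination libraries 2 and 3.

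Cxcl2 had 3.30, 3.90, 0.226 and 0.0905 CPM in combination libraries 2, 3, 4 and 5, against 630.2, 0.299 and 14.2 CPM in allogeneic libraries. The groups overlapped through allogeneic library 2, and the log2 fold change was -6.81 ± 1.86 (edgeR adjusted p = 0.0087). Cxcl3 had 0.465, 1.49, 0.0565 and 0.0905 CPM in combination libraries (-6.73 ± 1.70, adjusted p = 0.0054). Without allogeneic library 1 neither was called (-1.93, adjusted p = 0.26, and -2.52, adjusted p = 0.14). Ngp had no count in any combination library. Its mean was at least 132.5-fold lower than in allogeneic skin, counted against a floor of 3 counts per library. Without allogeneic library 1 it was at least 22.5-fold lower, a bound that rests on the 113 counts of allogeneic library 3 alone. Both bounds cover counting error only. Allogeneic library 2 had no Ngp count either, so the groups overlapped. Ngp was called in edgeR's test (adjusted p = 0.0043). It was also called without allogeneic library 1 (adjusted p = 0.0093), where library 3 was the only allogeneic library with a count.

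Cxcl1 had 4.89, 32.2, 0.904 and 1.04 CPM in combination libraries, against 29.9, 0.539 and 0.846 CPM in allogeneic libraries. Combination library 3 held as much as allogeneic library 1, and the log2 fold change was -0.09 ± 1.32 (edgeR adjusted p = 0.96). Without allogeneic library 1 Cxcl1 was called higher in combination skin (3.81 ± 1.41, adjusted p = 0.043). Cxcl5 had 8.26, 22.0, 0 and 0.543 CPM in combination libraries, against 31.2, 0 and 2.82 CPM in allogeneic libraries (-0.56 ± 1.63, adjusted p = 0.79). Il6 had 2.17, 13.5, 0.226 and 0.633 CPM, against 6.20, 0.359 and 1.80 CPM (0.57 ± 1.27, adjusted p = 0.73). For these 3 genes libraries 2 and 3 were high and libraries 4 and 5 low, and the sign of each fold change turned with 1 or more alternatives.

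Cxcr2 had 11.8, 29.1, 2.49 and 4.84 CPM in combination libraries, all below the lowest allogeneic value of 30.7 CPM, as was the case for 26.4% of all genes tested. Its log2 fold change of -1.52 ± 0.68 did not pass (edgeR adjusted p = 0.074), and it was called without combination library 3 (-2.43, adjusted p = 0.0049). Csf3r had 14.8, 25.3, 4.80 and 9.05 CPM in combination libraries (-1.42 ± 0.62, adjusted p = 0.068), and was called without combination library 3 (-1.92, adjusted p = 0.024) or without allogeneic library 2. Csf3 had 0.271 and 0.433 CPM in combination libraries 2 and 3 and no count in libraries 4 and 5, 16 counts in all. DESeq2 called 5 genes lower (Cxcl2, Cxcl3, Cxcr2, Csf3r and Ngp), limma-voom called 1 (Cxcr2), and no gene was called with an adipocyte score as covariate. Adipocyte sums of combination and allogeneic libraries did not overlap either, so the score and treatment can hardly be told apart there.

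Among the lists, combination skin had lower Ptafr (-1.60 ± 0.28, edgeR adjusted p = 0.00026), Jak2 (-1.70 ± 0.21, adjusted p = 2.1e-05), Il1a (-2.58 ± 0.52, adjusted p = 0.00095) and Vcam1 (-2.53 ± 0.42, adjusted p = 0.00021). Of 9 attractants and receptors 4 fell and 2 rose, of 10 adhesion genes 5 fell and 1 rose, and of 12 tested inducers 5 fell and 3 rose. In the colony-stimulating factor list 3 of 8 tested genes rose and 2 fell, with Csf2ra, the receptor of the granulocyte-macrophage factor, at 1.27 ± 0.24 (adjusted p = 0.0005). Ackr1 rose here too (2.17 ± 0.51, adjusted p = 0.0027). Both calprotectin genes fell, with S100a8 at -6.65 ± 1.29 (adjusted p = 0.0011), and 1 of the 2 was called without allogeneic library 1. Of 10 tested granule genes 4 fell and 1 rose, of 10 mature neutrophil genes 5 fell and 1 rose, of the 8 NF-kappaB feedback genes 3 fell and 2 rose, and of the 12 IL-6 family genes 5 fell and 2 rose. Over all genes tested, 27.4% were called lower and 27.1% higher. Without allogeneic library 1, mature neutrophil genes numbered 2 lower and 2 higher, NF-kappaB feedback genes 1 lower and 3 higher, inducers 2 lower and 3 higher, and colony-stimulating factor genes 0 lower and 2 higher. Among attractants and receptors a single gene was then called higher. Without combination library 3, inducers numbered 3 lower, and 1 gene each was called higher among the attractants and receptors, the NF-kappaB feedback genes and the IL-6 family.

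Combination library 3 was high in Cxcl1, Cxcl5 and Il6, and its neutrophil genes did not all follow allogeneic library 1. It had 37.3 CPM over the calprotectin genes and 2.65 CPM of Retnlg, against 3186 CPM and 269.9 CPM in allogeneic library 1. Cxcr2 was at a like level in both, with 29.1 CPM in combination library 3 and 30.7 CPM in allogeneic library 1. So was Cxcr1, the other receptor gene of this kind and named after its values were seen, with 2.89 and 2.79 CPM. Csf3r was lower in combination library 3, at 25.3 CPM, against 55.5 CPM in allogeneic library 1. Granule genes summed to 109.9 CPM and mature neutrophil genes to 207 CPM in combination library 3, against 1900 and 1265 CPM in allogeneic library 1. Its activated keratinocyte markers summed to 20400 CPM, against 19520 CPM in allogeneic library 1, while the other 3 combination libraries had 5236 to 9397 CPM. Il1b, an inducer of these chemokines, had 80.4 CPM in combination library 3 and 275.9 CPM in allogeneic library 1, against 2.88 to 21.2 CPM in the other combination libraries. Socs3, the feedback inhibitor that interleukin-6 signalling switches on and a gene of the IL-6 family list named here after its values were seen, had 337 CPM in combination library 3 and 220.4 CPM in allogeneic library 1. The part of keratinocytes in the result was not tested.

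**Figure D3:**
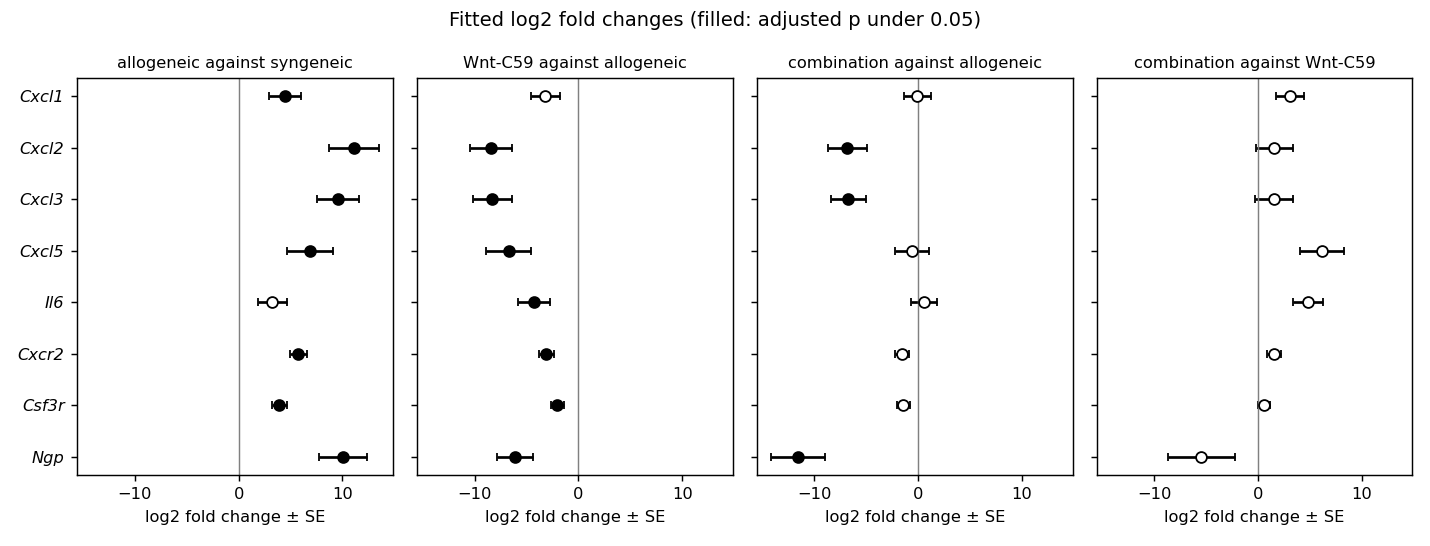
Fitted log2 fold changes with SE of the 8 tested genes in 4 comparisons on a common axis, with filled symbols for an adjusted p under 0.05. In combination against allogeneic skin Cxcl2 and Cxcl3 are filled at -6.81 and -6.73, Ngp is filled at a value that only the fit sets since no combination library had a count, and Cxcl1, Cxcl5 and Il6 sit at -0.09, -0.56 and 0.57.

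Combination skin was also compared with Wnt-C59 skin, which asks what belumosudil added. None of the 8 genes was called by edgeR at an adjusted p under 0.05, and 0.231% of all genes tested were called in either direction. At an unadjusted p under 0.05 there were 4 genes, where 20.9% of all genes tested were so, and DESeq2 called 1 (Il6). The log2 fold changes of these 4 were 3.11 ± 1.36 for Cxcl1 (adjusted p = 0.22), 6.17 ± 2.14 for Cxcl5 (adjusted p = 0.14), 1.56 ± 0.66 for Cxcr2 (adjusted p = 0.2) and 4.83 ± 1.48 for Il6 (adjusted p = 0.11). For each of the 4 genes combination library 4 lay within the range of the Wnt-C59 libraries, so the groups overlapped. Without combination library 3 the values were 1.02 for Cxcl1, 4.80 for Cxcl5, 0.65 for Cxcr2 and 2.83 for Il6. In the lists no gene was called; the smallest adjusted p values were those of Il6ra (-0.79 ± 0.20) and Il11 (1.60 ± 0.39), both 0.078.

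Each treated group was last set against syngeneic skin, to ask what was left of the rise. In Wnt-C59 skin 2 of 8 genes were called higher, where 26% of all genes tested were, so the count was near that background. They were Cxcr2 (2.67 ± 0.73, edgeR adjusted p = 0.0081) and Csf3r (1.91 ± 0.62, adjusted p = 0.019), with Cxcr2 at 1.25 to 6.87 CPM in Wnt-C59 libraries, against 0.275 to 1.01 CPM in syngeneic libraries. The Csf3r call was lost without Wnt-C59 library 1, syngeneic library 2 or syngeneic library 4. The ligand genes and Il6 did not pass, with log2 fold changes of -1.04 (Il6) to 2.71 (Cxcl2). Ngp did not pass either, with a ratio of 23.1 on 21 counts in Wnt-C59 libraries and 1 in syngeneic libraries (95% counting interval 3.71 to 955). That interval covers counting error only. In combination skin 5 of 8 genes were called higher, where 26.9% of all genes tested were. These were Cxcl1 (4.37 ± 1.47, adjusted p = 0.024), Cxcl5 (6.31 ± 2.15, adjusted p = 0.026), Cxcr2 (4.23 ± 0.76, adjusted p = 0.00045), Csf3r (2.51 ± 0.62, adjusted p = 0.0042) and Il6 (3.79 ± 1.35, adjusted p = 0.03). Without combination library 3, or without syngeneic library 3, Cxcr2 and Csf3r alone were called, and each of Cxcl1, Cxcl5 and Il6 lost its call on leaving out any 1 of 3 syngeneic libraries.

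The make-up of the ligand pool differed between the libraries that held it. The 4 ligand genes had 14086 counts together in allogeneic library 1, of which Cxcl2 made up 73.7% (95% exact binomial interval 72.9% to 74.4%) and Cxcl3 19.2% (18.6% to 19.9%). In allogeneic library 3 Cxcl2 made up 60.5% of 415 counts (55.6% to 65.2%). In combination library 3 Cxcl2 made up 6.54% of 1239 counts (5.22% to 8.06%), beside 54.1% of Cxcl1 (51.2% to 56.9%) and 36.9% of Cxcl5 (34.2% to 39.6%). In combination library 2 Cxcl5 made up 48.9% (44.1% to 53.6%) and Cxcl1 28.9% (24.7% to 33.4%) of 436 counts. The remaining libraries had 9 to 89 ligand counts, too few to set their make-up closely. Per kilobase of the longest transcript the order was the same, with Cxcl2 at 79.3% of the ligand level in allogeneic library 1 and 6.02% in combination library 3. The intervals cover counting error only, and no test over samples was made on these shares.

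**Figure D4:**
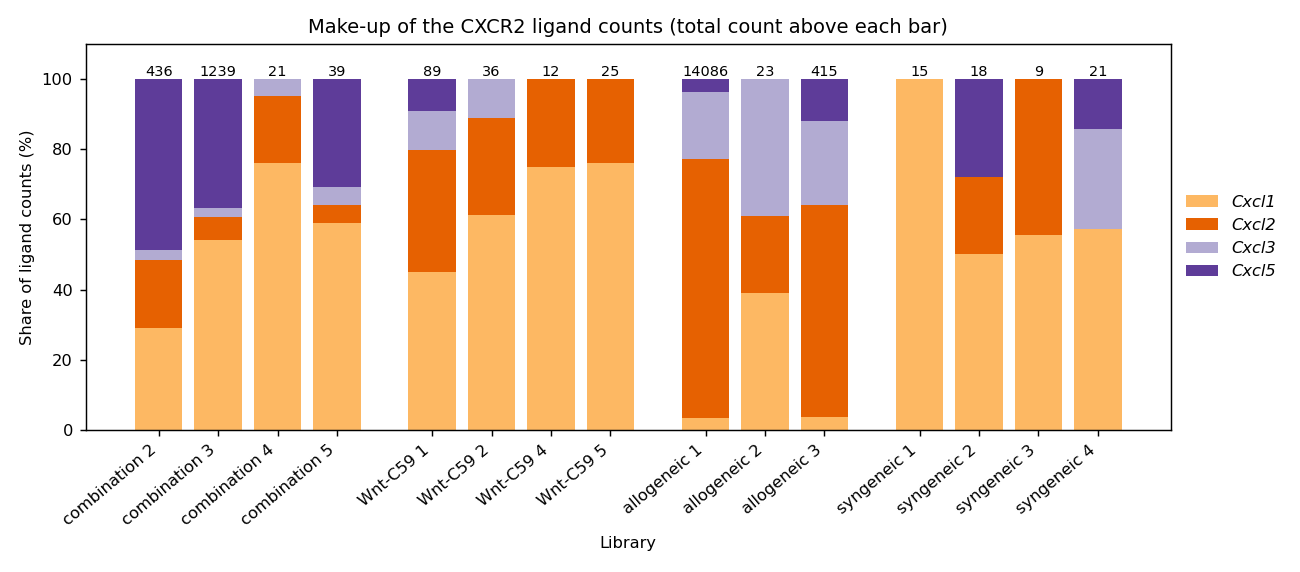
Share of Cxcl1, Cxcl2, Cxcl3 and Cxcl5 in the summed ligand counts of each library, in percent, with the number of counts above each bar. Cxcl2 fills most of the bar in allogeneic libraries 1 and 3 (73.7% and 60.5%), and Cxcl1 with Cxcl5 most of it in combination libraries 2 and 3.

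The balance of the receptor genes also varied. Per kilobase of the longest transcript, Cxcr2 stood to Csf3r as 0.633, 2.92 and 1.11 in allogeneic libraries 1, 2 and 3. The ratio was 0.909, 1.31, 0.592 and 0.611 in combination libraries, 0.551, 0.529, 0.527 and 0.464 in Wnt-C59 libraries, and 0.232, 0.516, 0.0868 and 0.796 in syngeneic libraries. Allogeneic library 2 thus had the highest ratio of all 15 libraries. On that per-length scale the receptor genes were the highest of the 9 genes in allogeneic library 2, with 11.2 CPM per kilobase for Cxcr2 and 3.85 for Csf3r, while the 4 ligands together had 0.587.

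**Figure D5:**
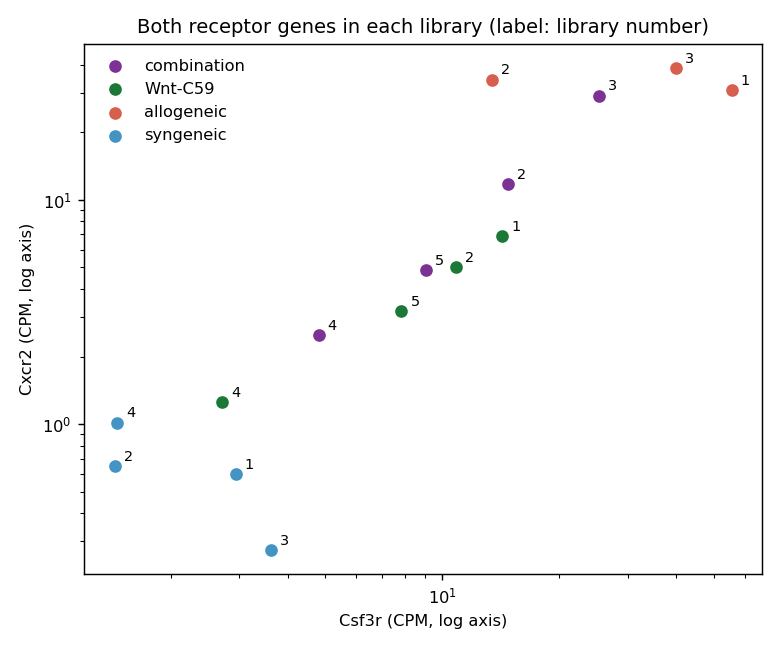
Cxcr2 against Csf3r in each of the 15 libraries, in CPM on log axes, with points coloured by group and marked with the library number. The syngeneic libraries lie lowest in Cxcr2 (0.275 to 1.01 CPM), the treated libraries between, and allogeneic library 2 lies left of the other allogeneic libraries, at 13.4 CPM of Csf3r.

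For each of the 8 tested genes, the genes most like it were sought by the root mean square difference of centred log2 CPM over the 15 libraries. A value of 0 would be the same pattern. The other genes of the 9, and genes with only a clone or predicted name, were left out of the search. Between genes of the 9, Cxcl2 and Cxcl3 differed by 1.11, and Cxcl5 and Il6 by 1.33. Cxcl2 and Cxcl5 were thus nearer to these than to any outside gene. For Cxcl1 the nearest was Il1b (0.81), and for Cxcl5 it was Mmp10, a metalloproteinase of wounded epithelium (1.39). For Cxcl2 the nearest was Trem1, a receptor of neutrophils and monocytes that amplifies inflammation (1.15), followed by the chemokine gene Ccl3 (1.23) and Retnlg (1.25). For Cxcl3 the nearest was S100a8 (0.79), followed by Ccl4 (0.98) and S100a9 (1.05). For Ngp it was Mmp8 (0.97). Il6 was nearest to Timp1, an inhibitor of metalloproteinases (0.99), which had 68.1, 146.6, 12.4 and 41.8 CPM in combination libraries, against 44.3, 16.8 and 17.4 CPM in allogeneic libraries.

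The receptor genes had other neighbours. Csf3r was nearest to Tlr2, C5ar1 and Sirpb1c (0.53 each), which are receptor genes of myeloid cells. Cxcr2 was nearest to Ms4a8a (0.58), Pdcd1 (0.67) and Klk9 (0.89). Pdcd1, the PD-1 gene of activated T cells, had 7.78, 4.07 and 9.87 CPM in allogeneic libraries, against 0.0459, 0, 0.0458 and 0.0882 CPM in syngeneic libraries. Klk9, a kallikrein gene of the outer epidermis, had 216, 119.7 and 232.7 CPM in allogeneic libraries, against 8.49, 9.83, 9.70 and 21.3 CPM in syngeneic libraries. No gene that marks neutrophils was among the 3 nearest to Cxcr2. These distances describe patterns over libraries that share the group differences.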

How the data were processed

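RNA of 15 mouse skin libraries was measured in 4 groups. The authors deposited values under Ensembl gene identifiers, many with a fractional part, and these values were taken here as unscaled estimated counts. The authors used FastQC, Trim Galore, HISAT2 and featureCounts with build GRCm39, per the submitters' processing notes; versions, strand setting and the treatment of reads that fit several genes are not given in the sources used here. Symbols (51276 genes, 91.5%), transcript lengths and GC came from GENCODE M21, and promoters from RefSeq, both of GRCm38.

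Counts were rounded and fitted with edgeR 4.0.16 in R 4.3.3 over all 15 libraries (TMM, filterByExpr, robust quasi-likelihood, group as the sole term, 18651 genes, Benjamini-Hochberg adjustment over all of them). Log2 CPM used a prior count of 2. Alternatives were DESeq2 1.42.0 and its size factors, limma-voom (limma 3.58.1), no filter, GC trend removal, an adipocyte score as covariate, the compared groups alone, a replicate block, and each library left out. The steps were tested on simulated data. All 9 genes were named, with up to 4 called genes per list by adjusted p (the best 2 of a list without calls). The 3 nearest genes outside the 9 were named for each tested gene of the 9. Not all of the named genes are printed. Members and lists were chosen with earlier results of these data known. Promoter coordinates are those of GRCm38.p6.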

Additional observations from a re-analysis of the deposited data

Results flagged for a closer look

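In 6 of the 25 pairs of gene and group open to the check, the highest library lay far outside the others of its group by Dixon's criterion. For normally distributed values chance alone meets it in about 1 of 20 groups, a rate that need not hold for skewed CPM values. It does not hold for 3 of the 6 (Cxcl5, Cxcl3 and Ngp below). There the other libraries were all at 0, and any count meets the criterion. Combination library 3 was set apart in Cxcl1 (32.22 CPM) and in Il6 (13.47 CPM). Wnt-C59 library 1 was set apart in Cxcl5 (0.41 CPM) and in Il6 (0.4613 CPM). Syngeneic library 4 was set apart in Cxcl3 (0.2646 CPM) and syngeneic library 2 in Ngp (0.04638 CPM, from 1 count). The allogeneic group, with 3 libraries, was not checked in this way.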

How the results depend on the processing

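The counts of called genes depended on the method. For allogeneic against syngeneic skin 7 genes were called higher, against 2 with limma-voom, 2 with these 2 groups alone and 1 with an adipocyte score as covariate. Numbers shared by libraries of these 2 groups did not pair them (correlations of -0.048, -0.143 and 0.008 between same-numbered libraries), and with them as a replicate block 3 were called. For Wnt-C59 against allogeneic skin 7 were lower, against 2 with limma-voom, 4 with the 2 groups alone and 0 with the adipocyte covariate. For the combination against allogeneic skin 3 were lower, against 5 with DESeq2, 1 with limma-voom and 0 with the adipocyte covariate. For the combination against Wnt-C59, DESeq2 called 1 higher. For Wnt-C59 against syngeneic skin 2 were higher, against 1 with no filter and 0 with limma-voom, and for the combination against syngeneic skin 5, against 2 with no filter, 2 with limma-voom and 3 with the 2 groups alone. With 1 library left out, the genes called higher numbered 4 to 7 (allogeneic against syngeneic), 0 to 1 (combination against allogeneic), 1 to 2 (Wnt-C59 against syngeneic) and 2 to 5 (combination against syngeneic). Those called lower numbered 2 to 8 (Wnt-C59 against allogeneic) and 1 to 5 (combination against allogeneic).

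The adipocyte covariate turned the most signs, and the cause was not tested. Adipocyte marker sums were 339.8 to 581.8 CPM in allogeneic libraries, below the 951 to 2181 CPM of Wnt-C59 and 1501 to 2074 CPM of combination libraries. The fit can thus hardly part this score from treatment, and its values for treated against allogeneic skin are extrapolations. With it, log2 fold changes for allogeneic against syngeneic skin were -0.63 (Cxcl1), -0.34 (Cxcl5) and -0.61 (Il6). For Wnt-C59 against allogeneic skin they were 4.23 (Cxcl1), 2.23 (Cxcl2), 1.90 (Cxcl3), 2.79 (Cxcl5), 0.79 (Il6) and 2.28 (Ngp). For the combination against allogeneic skin they were 7.46 (Cxcl1), 4.95 (Cxcl2), 4.89 (Cxcl3) and 10.60 (Cxcl5). Against syngeneic skin they were 0.19 (Il6, Wnt-C59) and 1.94 (Ngp, combination), none of them called. Ackr1 in allogeneic against syngeneic skin was at 0.02 with this covariate and at 0.02 with limma-voom. With limma-voom the combination against allogeneic skin gave 0.60 (Cxcl1), 0.14 (Cxcl5) and -0.07 (Il6), and Wnt-C59 against syngeneic skin -0.42 (Cxcl5). With the GC trend removed the combination against allogeneic skin gave 0.56 (Cxcl1) and 0.60 (Cxcl5).

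Leaving out 1 library turned further signs. Cxcl1 ran between -2.18 and 3.81, Cxcl5 between -1.93 and 2.44 and Il6 between -1.44 and 1.92 in the combination against allogeneic skin. Cxcl1 ran between -3.77 and 0.70 in Wnt-C59 against allogeneic skin. In Wnt-C59 against syngeneic skin Cxcl3 ran between -0.03 and 4.89, Cxcl5 between -3.99 and 1.10 and Il6 between -2.92 and 0.38, and Ackr1 between -0.23 and 0.28 in allogeneic against syngeneic skin. Ligand counts under 100 per library outside 4 libraries limit what can be said of low levels.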
